A study of Homo sapiens with 12 samples.

Results

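The proteasome genes described here are the protein-coding genes of the counts table whose GENCODE v44 name begins with PSMA, PSMB, PSMC, PSMD, PSME, PSMF or PSMG. There are 50 of them, out of 19629 protein-coding genes and 58037 genes in all, and the name alone chose them. The RNA-seq experiment used wild-type HCT116 cells, a human colorectal carcinoma line, in 4 groups of 3 samples, each treated for 8 h. The groups were DMSO (the solvent control), 10 μM Nutlin-3a (which frees p53 from MDM2), 20 nM NVP-2 (an inhibitor of the P-TEFb kinase CDK9) and the combination of both compounds. All 12 columns of the counts table held the same values, with 0 genes that differed between any columns, so there is 1 distinct profile of 22720718 counts whose treatment is not known. It was read from the column of the first DMSO sample and counted as 1 sample. No treated group could be compared with another, no replicate error exists, and each interval below is an exact 95% interval for counting error only, since PCR copies of a molecule cannot be told apart.

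The proteasome is the protease that degrades ubiquitin-tagged proteins in the cytosol and nucleus, p53 among them once MDM2 has tagged it. Its core is a barrel in which outer rings of alpha subunits guard the entry and inner rings of beta subunits carry the proteolytic sites. A regulatory particle of ATPase and non-ATPase subunits binds, unfolds and feeds in tagged substrates, while other caps open the barrel without ubiquitin. In cells exposed to interferon-gamma, and constitutively in many immune cells, the catalytic beta subunits are replaced by inducible homologues, which gives the immunoproteasome and alters the peptides offered to MHC class I molecules.

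Markers of cell type matched an epithelial line. *EPCAM*, *CDH1*, *KRT8*, *KRT18* and *KRT19* lay between 10.7 and 514 RPKM, that is, counts scaled to a total of 1000000 (CPM) and divided by the kilobases of a gene's merged exons. The defining leukocyte gene *PTPRC* had 0 counts, as did the fibroblast genes *COL1A2* and *DCN*. None of the 8 leukocyte, fibroblast and endothelial markers reached an RPKM of 1. The highest of them, the fibroblast gene *COL1A1*, came close with 199 counts and 0.972 RPKM, and had 1.48 RPKM on its canonical transcript. In RNA from bulk cells, a low level in all cells and a higher level in a few cells cannot be told apart.

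The catalytic subunits are shown first, since the comparison of constitutive with inducible subunits turns on them. Each active beta subunit is made as a precursor and cleaved in front of a threonine, which then becomes the first residue of the mature protein and its nucleophile. The lines below give 33 bases of coding sequence (hg38, GENCODE v44 canonical transcripts) for each pair that competes for the same position, from the codon of the glycine before this threonine, with the threonine codon in capitals.
PSMB5: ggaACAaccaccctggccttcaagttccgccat
PSMB8: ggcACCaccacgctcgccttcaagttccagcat
PSMB6: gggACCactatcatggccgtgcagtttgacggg
PSMB9: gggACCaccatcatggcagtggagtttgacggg
PSMB7: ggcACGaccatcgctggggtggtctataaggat
PSMB10: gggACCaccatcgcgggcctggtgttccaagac
The threonine is residue 60 of the *PSMB5* precursor, 73 of *PSMB8*, 35 of *PSMB6*, 21 of *PSMB9*, 44 of *PSMB7* and 40 of *PSMB10*. The *PSMB8* stretch lies unbroken in exon 2 at chr6:32842991-32843023 on the minus strand, and each of the other 5 crosses an exon junction. Within the 33 bases the partners shared 27 (*PSMB5* and *PSMB8*), 30 (*PSMB6* and *PSMB9*) and 22 (*PSMB7* and *PSMB10*). Over the whole translated precursors the partners were 62.8%, 59.8% and 56.8% identical, whereas the constitutive subunits were between 29.2% and 30.7% identical to each other. Partners therefore resembled each other more than their neighbours in the ring, yet every 75-base read window of *PSMB5*, *PSMB6*, *PSMB7*, *PSMB8* and *PSMB9* (canonical transcripts) was found in no other gene.

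The constitutive catalytic genes were abundant in the profile and the inducible ones were low, with *PSMB8* close to the counting limit. *PSMB5* (ENSG00000100804), the chymotrypsin-like beta5 subunit at chr14:23016543-23035230, had 5606 counts, or 247 CPM and 159 RPKM (155 to 163). Its inducible partner *PSMB8* (ENSG00000204264) had 6 counts, or 0.264 CPM and 0.0759 RPKM (0.0278 to 0.165). *PSMB5* thus exceeded *PSMB8* by a ratio of 934 in CPM (429 to 2547) and of 2099 in RPKM (964 to 5722). The RPKM ratio is larger because the merged exons of all annotated *PSMB8* transcripts cover 3480 bases, against 1124 in its canonical transcript, while those of *PSMB5* cover 1549 and 1044.

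At the caspase-like beta1 position, *PSMB6* (ENSG00000142507, chr17:4796144-4798502) had 4490 counts and 137 RPKM (133 to 141), and *PSMB9* (ENSG00000240065) had 74 counts and 0.976 RPKM (0.766 to 1.22). The ratio was 60.7 in CPM (48.2 to 77.4) and 140 in RPKM (111 to 179). At the trypsin-like beta2 position, *PSMB7* (ENSG00000136930, chr9:124353465-124415444) had 6467 counts and 159 RPKM (155 to 163), against 63 counts and 1.71 RPKM (1.31 to 2.18) for *PSMB10* (ENSG00000205220, chr16:67934506-67936864). The ratio of the latter pair was 103 in CPM (80.1 to 134) and 93.4 in RPKM (72.9 to 122). No interval of a constitutive gene came near that of its inducible partner. Summed over the 3 positions, the constitutive genes had 16563 counts and the inducible genes 143, and the inducible genes made up 0.602% of the RPKM of all 6.

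**Figure D1:**
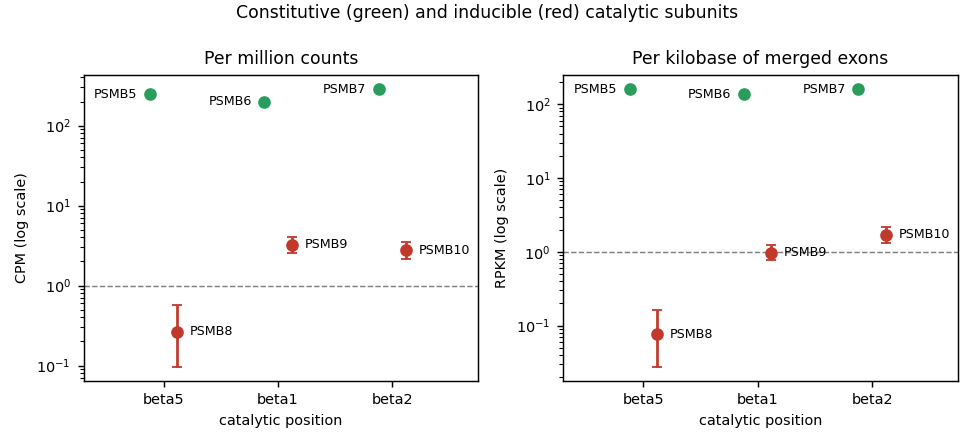
Levels of the constitutive (green) and inducible (red) catalytic subunits at the beta5, beta1 and beta2 positions in the distinct HCT116 profile, as CPM (left) and RPKM (right) on log axes, with 95% counting intervals as bars and a dashed line at 1. The green points lie between 137 and 159 RPKM, and the red points between 0.0759 and 1.71 RPKM.

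Among the inducible genes *PSMB10* was above *PSMB9* in RPKM (ratio 1.75, 1.23 to 2.48), but in CPM the interval of their ratio held 1 (0.851, 0.599 to 1.21). This order rests on gene length, and on the canonical transcripts *PSMB9* came to 3.20 RPKM and *PSMB10* to 2.84. *PSMB11*, the beta5 subunit of the thymic cortex, is a single-exon gene 6981 bp from *PSMB5* on chromosome 14. It had 8 counts and 0.190 RPKM (0.0822 to 0.375), and its ratio to *PSMB8* had an interval that held 1 (2.51, 0.764 to 8.77). The order of *PSMB11* and *PSMB8* was not resolved at this depth. *PSMB8* and *PSMB9* lie head to head in the MHC class II region of chromosome 6, at chr6:32840717-32844679 and chr6:32844136-32859851, and overlap there on opposite strands. The antisense gene *PSMB8-AS1*, annotated on the strand of *PSMB9*, had 0 counts.

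Part of *PSMB10* is annotated in more than 1 gene. In GENCODE v44 a read-through gene on the same strand, ENSG00000261884, covers much of it, with exons over 56.1% of the bases of the *PSMB10* transcript. Of the 75-base windows of this transcript, 39.3% had no base on these exons and were found in no other gene. The read-through gene had 28 counts against the 63 of *PSMB10*. With these counts added to *PSMB10*, an alternative chosen after seeing the data, *PSMB7* exceeded it 64.6-fold in RPKM. How the authors' counting treated reads that fall in more than 1 gene is not given in the sources used here.

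The promoter of *PSMB10*, the inducible gene with the highest RPKM, is shown because it holds a core of the interferon-stimulated response element, which is GAAA, any 2 bases and GAAA again (capitals). These are the 250 bases before the RefSeq start on the minus strand of GRCh38.p14, chr16:67936851-67937100, whose 3′ end overlaps the outermost exon annotated for the gene in GENCODE v44.
PSMB10: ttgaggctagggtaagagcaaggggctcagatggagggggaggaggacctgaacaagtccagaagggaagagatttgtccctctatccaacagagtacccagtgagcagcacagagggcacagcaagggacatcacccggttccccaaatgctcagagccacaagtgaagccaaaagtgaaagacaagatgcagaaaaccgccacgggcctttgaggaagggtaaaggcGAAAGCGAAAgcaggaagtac
RefSeq promoter windows (250 bases before to 50 after a start) were matched for 44 of the 50 genes, which gave 55 windows. Only the 250 bases before each start were searched, on both strands, beside the same bases of 35116 windows of all genes. The interferon-stimulated response core was found in 9.09% of the members' windows and 3.02% of all windows, in *PSMA4*, *PSMB4*, *PSMB10*, *PSME2* and *PSMG4*. No window of *PSMB8* or *PSMB9*, the other inducible catalytic genes, held it in these 250 bases. TTCNNNGAA, the core of the gamma-activated site, was found in *PSMA2*, *PSMA8*, *PSMB5*, *PSMC4*, *PSMD3*, *PSME3* and the inducible *PSMB8*. It was in 12.7% of the members' windows and 6.57% of all. TGACNNNGC, the core of the antioxidant response element bound by NFE2L1 and NFE2L2, was in 23.6% and 10.9%, and CCAAT in 41.8% and 32.0%. These are letter matches, given without a test. Genes with the interferon-stimulated response core had levels from 1.71 RPKM for *PSMB10* to 178 RPKM for *PSMB4*.

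With all roles pooled, most proteasome genes stood high among protein-coding genes. At least 1 RPKM, the threshold that the study used for an expressed gene, was reached by 46 of 50 members (92.0%), beside 44.6% of all protein-coding genes. At least 10 RPKM was reached by 36 members (72.0%), beside 16.2% of all protein-coding genes. Their median was 32.4 RPKM, against 0.589 over all protein-coding genes and 6.03 over those with at least 1 RPKM, and 30 of the 50 lay above the 90th percentile of 18.6 RPKM. Together they held 204992 counts, or 0.902% of the profile. The 4 genes under 1 RPKM were *PSMA8*, *PSMB8*, *PSMB9* and *PSMB11*, which are either inducible or restricted to a tissue.

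**Figure D2:**
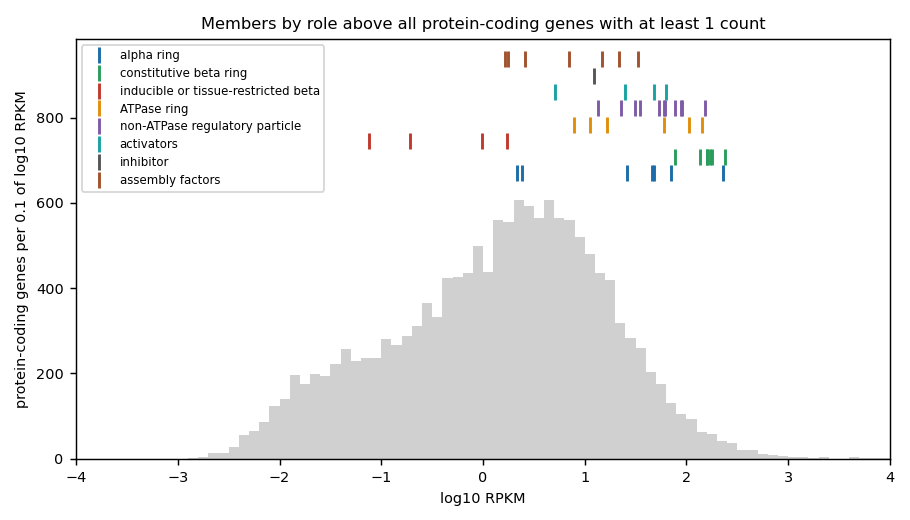
RPKM on a log10 axis for protein-coding genes with at least 1 count (grey histogram, genes per 0.1 of log10 RPKM) and, as coloured ticks in 1 line per role above it, for the proteasome genes with at least 1 count; the height of a tick line carries no value. The constitutive beta ring sits at the far right, between 77.9 and 242 RPKM, and the inducible or tissue-restricted beta genes lie at 1.71 RPKM or below.

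By role, the median RPKM ran from the constitutive beta ring (159) through the non-ATPase regulatory particle (59.6), the ATPase ring (38.2), the activators (36.6), the alpha ring (36.1), the inhibitor *PSMF1* (12.4) and the assembly factors (7.07) to the inducible or tissue-restricted beta genes (0.583). The alpha ring here includes the testis-specific *PSMA8*, which had 0 counts. Of its other 7 genes *PSMA5* was the middle one, at 46.0 RPKM, above the medians of the ATPase ring and the activators. The middle of this order was close, with the ATPase ring, activators and alpha ring between 36.1 and 38.2. On canonical transcripts these 3 medians were in the same order, at 104, 95.8 and 67.9, whereas in CPM the alpha ring (149) stood above the activators (100.5). *PSMF1* (15.7) fell below the assembly factors (23.3) on canonical transcripts. The constitutive beta ring stayed above, and the inducible beta genes below, the other roles on canonical transcripts too.

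**Figure D3:**
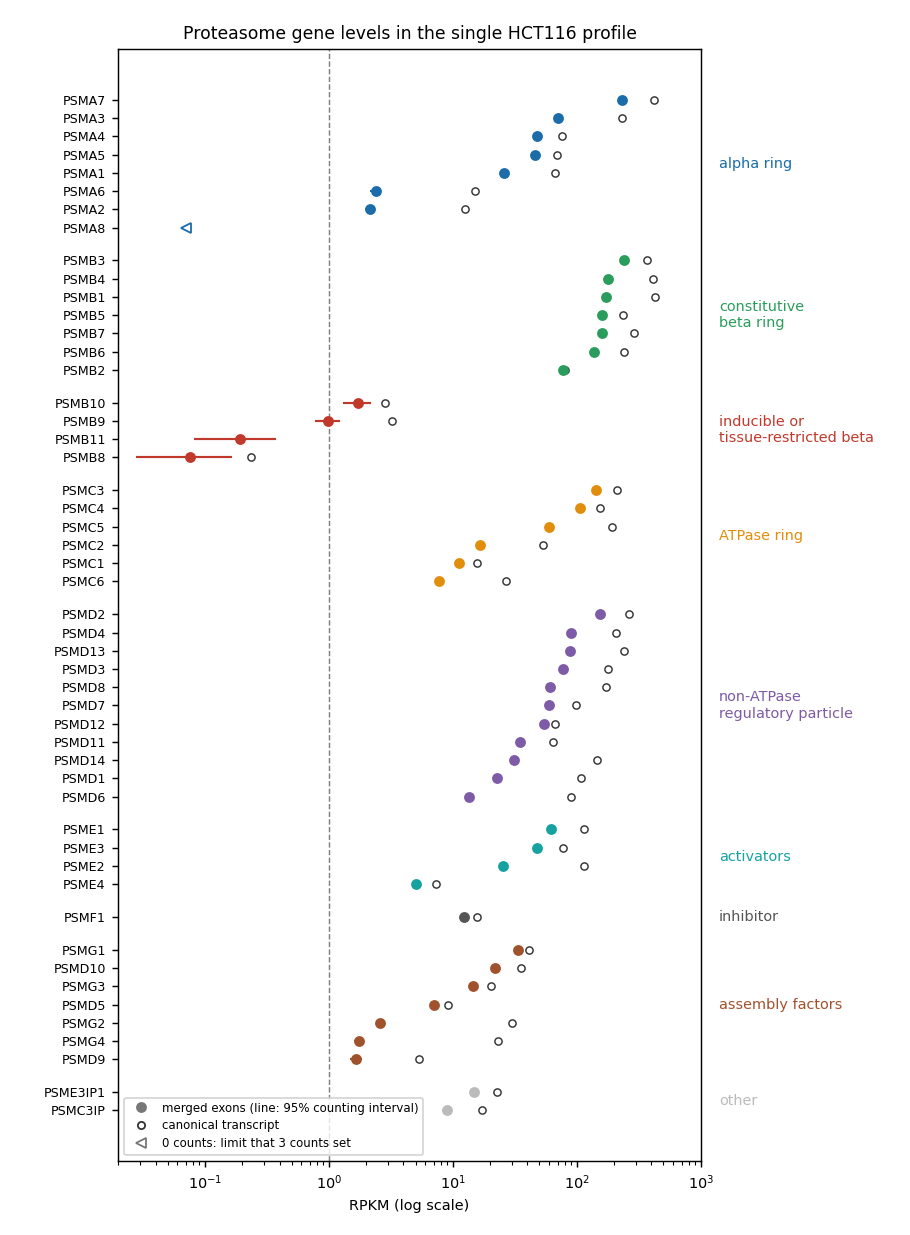
RPKM on a log axis for the 50 proteasome genes grouped by role, from merged exons (filled circles, with 95% counting intervals as lines) and from the canonical transcript (open circles), with a dashed line at 1 RPKM and an open triangle for *PSMA8*, which had 0 counts, at the level of 3 counts. Genes of the constitutive beta ring cluster between 77.9 and 242 RPKM, while the alpha ring spreads from *PSMA7* at 230 to *PSMA6* and *PSMA2* below 3.

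The constitutive beta ring was fairly even on merged exons. Its 7 genes spanned 3.11-fold, with a standard deviation (SD) of 0.50 on the log2 RPKM scale (n = 7 genes), beside an SD of 1.93 over all protein-coding genes with at least 1 RPKM. On canonical transcripts they ran from 79.7 to 426 RPKM, beside 64.1 to 262 for the non-ATPase regulatory particle, so that the evenness of the ring rests on the length used. *PSMB3*, a structural beta subunit encoded on chromosome 17, was the highest of all 50 members on merged exons at 242 RPKM (236 to 248), which placed it at the 99.4th percentile of protein-coding genes. On canonical transcripts it had 371 RPKM, below *PSMB1* (426), *PSMA7* (419) and *PSMB4* (412). The structural subunits *PSMB4* and *PSMB1* followed within the ring at 178 and 171 RPKM, next to *PSMB5* and *PSMB7*, whose ratio had an interval that held 1 (1.00, 0.965 to 1.04). *PSMB6* had 137 RPKM and *PSMB2*, the remaining structural subunit, was lowest at 77.9 RPKM. In CPM these 7 genes ranged from 198 for *PSMB6* to 380 for *PSMB1*, a narrower span in which *PSMB2* was not the lowest (353).

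The alpha ring was less even on merged exons. *PSMA7*, which encodes the alpha4 subunit, had 9159 counts and 230 RPKM (225 to 235). Behind it came *PSMA3* at 70.6 RPKM, *PSMA4* at 47.6, *PSMA5* at 46.0 and *PSMA1* at 26.1, while *PSMA6* and *PSMA2* had 354 and 408 counts and 2.39 (2.15 to 2.66) and 2.14 (1.94 to 2.36) RPKM. These subunits occupy the ring in equal numbers, yet *PSMA7* exceeded *PSMA2* 107-fold in RPKM (97.2 to 119) and 22.4-fold in CPM (20.3 to 24.8). Every window of *PSMA2* is shared with another gene, so its counts are uncertain as a level beyond this counting interval. The 4 alpha genes with no shared window (*PSMA3*, *PSMA4*, *PSMA5* and *PSMA7*) spanned 5.00-fold in RPKM. *PSMA6* and *PSMA2* did not differ beyond counting error in RPKM (ratio 1.12, 0.966 to 1.29). Both also share most of their sequence with other annotated genes, as described below. *PSMA8*, the testis-specific homologue of *PSMA7* that is 83.9% identical to it as a protein, had 0 counts, read as up to 3 counts or 0.132 CPM, and the upper end of its 95% interval was 0.162 CPM.

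In the ATPase ring of the regulatory particle, which unfolds substrates, 3 genes were high and 3 were low. *PSMC3* had 143 RPKM (140 to 146), *PSMC4* 107 and *PSMC5* 59.7. *PSMC2* had 16.7 RPKM, *PSMC1* 11.2 (10.7 to 11.8) and *PSMC6* 7.79 (7.38 to 8.22). *PSMC3* was thus 18.3-fold above *PSMC6* in RPKM (17.3 to 19.4) and 5.58-fold in CPM (5.26 to 5.92). *PSMC2* overlaps *PMPCB* on the same strand, a gene with 1701 counts, but no window of the canonical *PSMC2* transcript was shared. On that transcript *PSMC2* had 53.2 RPKM.

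All 11 non-ATPase genes of the regulatory particle reached 10 RPKM, beside 16.2% of all protein-coding genes, and lay between 13.5 and 154. *PSMD2*, a scaffold of the base that binds ubiquitin-like domains, had the most counts of any member (17342) and 154 RPKM (152 to 156). *PSMD1*, the other large scaffold of the base, had 8149 counts and 22.7 RPKM, although a particle holds both. On canonical transcripts the values were 262 and 108 RPKM. *PSMD4*, a ubiquitin receptor, had 90.6 RPKM, which was not distinguishable from *PSMD13* of the lid at 88.4 (the ratio of *PSMD13* to *PSMD4* was 0.976, 0.945 to 1.01).

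The lid genes *PSMD3*, *PSMD8*, *PSMD7* and *PSMD12* had 76.8, 60.9, 59.6 and 54.0 RPKM. *PSMD14*, the deubiquitinase that removes the ubiquitin chain as the substrate enters, had 5173 counts and 31.1 RPKM (30.3 to 32.0). Its lid neighbours *PSMD11* and *PSMD6* had 34.8 and 13.5 RPKM. The 11 genes together held 78823 counts, 38.5% of the counts of all members, against 23.5% for the constitutive beta ring and 14.8% for the alpha ring.

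Among the activators, caps that open the core without ATP, *PSME1* and *PSME2* encode the subunits of the interferon-inducible activator and lie 4394 bp apart on chromosome 14. *PSME1* had 2516 counts and 62.4 RPKM (59.9 to 64.8), and *PSME2* 2050 counts and 25.2 RPKM (24.1 to 26.3). The difference was 2.48-fold in RPKM (2.33 to 2.63) and 1.23-fold in CPM (1.16 to 1.30), and on canonical transcripts they stood at 115 and 114 RPKM. Although *PSME1* and *PSME2* are induced together with *PSMB8*, *PSMB9* and *PSMB10* by interferon-gamma, their RPKM was in the range of the structural subunits. That range was wide, from 2.14 to 242 without *PSMA8*. In CPM, *PSME1* (111) and *PSME2* (90.2) lay below the 25 structural subunits with at least 90% of windows found in no other gene (122 to 763). *PSME3*, which forms the nuclear activator, had 5624 counts and 48.0 RPKM, and *PSME4*, a large activator linked to histone degradation, 1196 counts and 5.07 RPKM. *PSMF1*, the proteasome inhibitor PI31, had 2910 counts and 12.4 RPKM (11.9 to 12.8).

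Assembly factors had a low median on merged exons, where only the inducible beta genes were lower. *PSMG1* and *PSMG2* form a dimer that guides the alpha ring and had 33.7 and 2.58 RPKM, and *PSMG3* and *PSMG4*, which form the other such dimer, had 14.6 and 1.75 RPKM. The partners of each dimer were closer in CPM (72.4 and 32.2, then 28.9 and 18.3). On canonical transcripts, too, they were closer, at 41.3 and 30.1 RPKM for the first dimer and at 20.2 and 23.3 for the second. Of the chaperones of the ATPase ring, *PSMD10*, known as the oncoprotein gankyrin, had 21.9 RPKM (20.7 to 23.2), *PSMD5* 7.07 and *PSMD9* 1.66.

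The rule also took in *PSMC3IP* (525 counts, 8.96 RPKM), a meiotic recombination factor named for its binding to PSMC3, and *PSME3IP1* (1468 counts, 14.9 RPKM), which binds PSME3. Neither is a proteasome subunit. Ranked by RPKM, the 49 members with counts formed 48 neighbouring pairs, and in 17 of these the interval of the ratio held 1, so that the order within such pairs was not resolved.

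Several of the lower members share sequence with other annotated genes. For each member the 75-base windows of its canonical transcript, the length of the reads, were compared with the other genes of the counts table. A window was called shared if any base lay on a GENCODE v44 exon of an overlapping gene on the same strand. It was also called shared if its letters recurred in a transcript of a gene elsewhere. All remaining windows are called found in no other gene. In 39 members no window was shared, and the other 11 include *PSMB10*, described above. All windows of *PSMA2* lay on exons of the same-strand read-through gene ENSG00000256646 (0 counts), and 10.2% of the windows of *PSMA6*, 18.5% of *PSMA1* and 66.9% of *PSMD9* were found in no other gene. Their read-through genes had 4, 0 and 0 counts, respectively. Processed pseudogenes, which are intronless copies elsewhere in the genome, shared windows with *PSMC1*, *PSMC6*, *PSMA6*, *PSMD4*, *PSMD2*, *PSME2* and *PSME3IP1*.

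The largest such copy by counts was *PSMC1P1*, at chr3:68635705-68637024. It had 5297 counts, 3.39-fold as many as *PSMC1* itself (1562; interval 3.20 to 3.59). Over the 1320 coding bases of *PSMC1* it carries 1 mismatch, and 94.0% of the 75-base windows of the coding sequence were identical in both. The 60 coding bases around the mismatch are shown with the differing base in capitals, because within the coding sequence the letters of a read can tell the loci apart only here. In *PSMC1*, at chr14:90268397-90269439, they cross the junction of exons 8 and 9, and in *PSMC1P1* they are unbroken at chr3:68636569-68636628.
PSMC1: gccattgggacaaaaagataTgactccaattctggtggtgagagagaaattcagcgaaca
PSMC1P1: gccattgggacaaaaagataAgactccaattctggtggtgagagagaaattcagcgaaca
The counts of *PSMC1* and *PSMC1P1* are therefore uncertain as levels of each gene alone. Their sum was 6859 counts or 302 CPM, and with pseudogene counts added, an alternative chosen after seeing the data, the median of the ATPase ring was 54.6 RPKM. In CPM the other members of the ring ran from 58.3 to 325.

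Other copies took fewer counts. The pseudogenes named for *PSMA6* had 352 counts in all against 354 of the gene, the copy of *PSMC6* (ENSG00000236814) 378 against 1324, *PIPSL*, which holds a copy of *PSMD4*, 717 against 6219, and the copy of *PSMD2* (ENSG00000228818) 403 against 17342. *PSME2P2* and *PSME2P1* had 73 and 60 counts against 2050 of *PSME2*. Of 44 pseudogenes named for a member, 23 had 0 counts and 32 had at most 3, and without *PSMC1P1* all of them summed to 561 counts.

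The 31 structural subunits other than *PSMA8* were then split by the share of their windows found in no other gene, at 90%, a split chosen after seeing the values and so given without a test. The 6 below it (*PSMA1*, *PSMA2*, *PSMA6*, *PSMC1*, *PSMC6* and *PSMD4*) had a median of 63.5 CPM and ranged from 15.6 to 274, and the 25 above it had a median of 283 CPM and ranged from 122 to 763. Of the 6, only *PSMD4* fell within the range of the 25. The part of shared sequence in the low values of *PSMA2*, *PSMA6*, *PSMA1*, *PSMC1* and *PSMC6* was not tested.

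**Figure D4:**
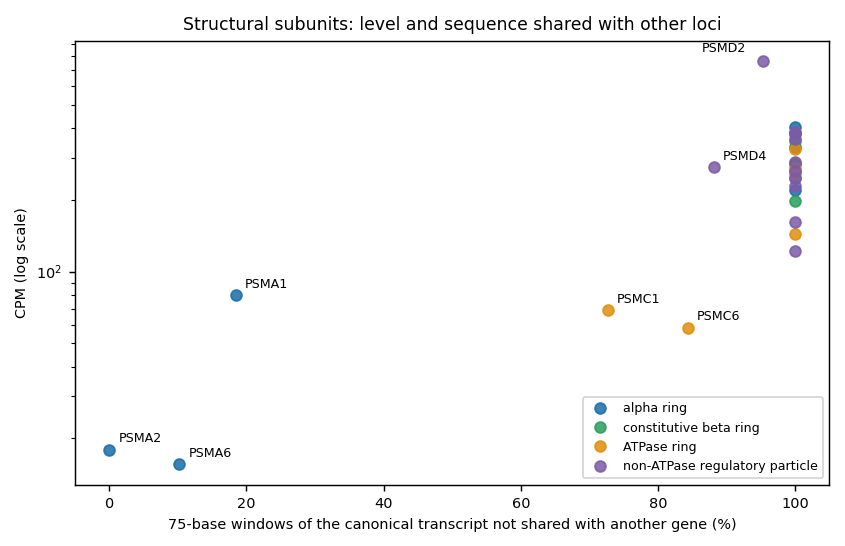
CPM (log axis) of the 31 structural subunits against the percentage of 75-base windows of the canonical transcript that occur in no other gene, coloured by role, with a label on each gene below 100%. *PSMA2*, *PSMA6*, *PSMA1*, *PSMC1* and *PSMC6* lie below 80 CPM, and the genes at 100% lie between 122 and 403 CPM.

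Antisense transcripts named for members were scarce. *PSMA3-AS1* had 218 counts against 4983 of *PSMA3*, *PSMG3-AS1* 46 against 656 of *PSMG3* and *PSMD6-AS2* 36 against 2779 of *PSMD6*. Counting was strand-specific. The members are spread over 17 chromosomes, with 8 each on chromosomes 14 and 17. The neighbours *PSMB5* and *PSMB11* stood at 159 and 0.190 RPKM, whereas the neighbours *PSME1* and *PSME2* both exceeded 10 RPKM.

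Genes that act with the proteasome were taken from fixed lists. All 9 further proteasome genes reached 1 RPKM, beside 44.6% of all protein-coding genes, with a median of 12.3. *ADRM1*, a ubiquitin receptor of the regulatory particle, had 123 RPKM, and *POMP*, the chaperone that matures the core, 38.2 RPKM. *SEM1*, the small lid subunit, had 96.5 CPM and 9.05 RPKM, but 211 RPKM on its canonical transcript. The deubiquitinases *USP14* and *UCHL5* had 20.2 and 13.7 RPKM, *ECPAS*, *TXNL1* and *AKIRIN2* 12.3, 9.26 and 7.68, and *PAAF1*, which binds free regulatory particles, 1.14.

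All 4 genes of transcriptional control were above 1 RPKM, beside 44.6% of all protein-coding genes. *NFE2L1*, the factor that raises proteasome gene transcription when the protease is impaired, had 24.0 RPKM, *NFE2L2* had 5.51, and *DDI2* and *NGLY1*, which process NFE2L1, had 2.22 and 1.90. The 7 ubiquitin and shuttle genes reported here each passed. The polyubiquitin gene *UBB* had 550 RPKM, above every member, the ubiquitin fusion gene *RPS27A* 228, the shuttle gene *RAD23B* 102, and *VCP*, the unfoldase that extracts tagged proteins, 40.9. *UBQLN1*, *UBQLN4* and *UBQLN2* had 35.8, 16.8 and 2.58 RPKM.

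Among the interferon-inducible partners of the immunoproteasome, 6 of the 8 reported reached 1 RPKM, beside 44.6% of all protein-coding genes. Their levels were thus not all as low as those of *PSMB8* and *PSMB9*. *TAP1*, a subunit of the peptide transporter which lies within the annotated span of *PSMB9*, had 1319 counts and 12.3 RPKM, and *TAP2* 1069 counts and 4.54 RPKM, against 6 counts of *PSMB8* and 74 of *PSMB9*. The MHC class I genes *HLA-C* and *HLA-B* had 184 and 54.8 RPKM and their light chain *B2M* 104, where reads of the *HLA* genes can be split between near-identical copies. *TAPBP*, which helps load peptides onto class I molecules, had 11.4 RPKM. The 2 below 1 RPKM were transcriptional activators of the immunoproteasome and class I genes, *IRF1* (128 counts, 0.459 RPKM) and *NLRC5* (93 counts, 0.330 RPKM). On canonical transcripts *IRF1* had 1.59 RPKM and *NLRC5* 0.604, beside 3.20 for *PSMB9*, so that passing 1 RPKM depends on the length used.

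**Figure D5:**
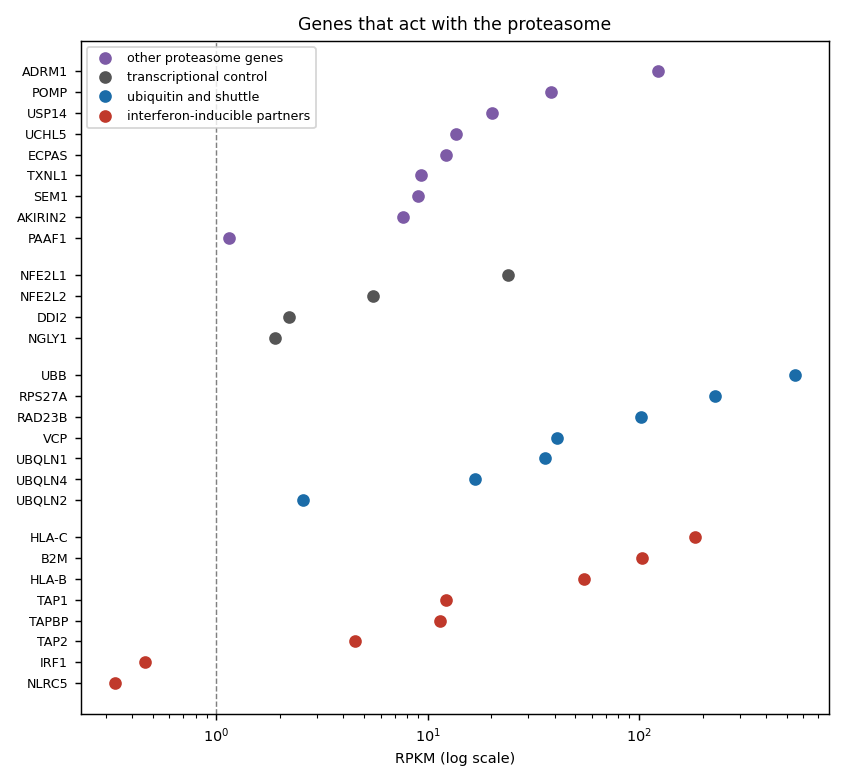
RPKM on a log axis for genes that act with the proteasome, 1 point per gene, coloured by list, with a dashed line at 1 RPKM. *UBB* is the highest at 550 RPKM, and *IRF1* and *NLRC5* are the only genes left of the line.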

How the data were processed

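Poly-A-selected, strand-specific libraries of HCT116 cells were sequenced as single 75-base reads, which the authors mapped to hg38 and rRNA sequences with ContextMap, using BWA. The deposited table holds whole-number counts per gene that the authors made with featureCounts and Gencode version 25, without normalization. Identifiers were matched to GENCODE v44 without their version suffix (56948 of 58037, with 99.8% of the counts). CPM and RPKM were computed from 22720718 counts and the merged exon length, with Python 3.11.15 and scipy 1.17.1. Intervals are exact Clopper-Pearson intervals, of a gene's counts among all counts or of the counts of a pair. A count of 0 was read as up to 3 counts. Genes named are all members, the lists (less 6 genes not reported here), and pseudogenes and antisense genes named for a member. Other genes sharing sequence or overlapping a member were chosen after their values were seen. The members and lists were chosen with earlier results of these data known. The planned edgeR comparison of conditions was not run, since the 12 columns are identical. The comparison of columns, the window search and the intervals were tested on simulated data.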

Additional observations from a re-analysis of the deposited data

How the results depend on the processing

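No paired analysis was possible because the 12 identical columns amount to 1 sample. The edgeR and DESeq2 tests, the test without a filter, the replicate block and the omission of single replicates were not run for that reason. With 1 profile, the values below are descriptions of how far the length and the denominator set a level. In the order alpha ring, constitutive beta ring, inducible beta, ATPase ring, non-ATPase regulatory particle, activators, *PSMF1* and assembly factors, the median RPKM on canonical transcripts was 67.9, 289, 1.54, 104, 145, 95.8, 15.7 and 23.3, and the median CPM 149, 285, 1.56, 199.97, 274, 100.5, 128 and 31.1. With the windows found in no other gene as the length, chosen after seeing the data, it was 161, 313, 1.85, 109, 152, 102, 15.9 and 25.7, which leaves out *PSMA2*. Every count of a gene was kept and divided by these windows only, which raises genes with many shared windows. The alpha ring value is that of *PSMA6*, which had 15.2 RPKM on its canonical transcript. With nuclear protein-coding counts as the denominator it was 43.6, 193, 0.705, 46.2, 72.1, 44.3, 15.0 and 8.56. Geometric means were 11.6, 153 and 0.394 for the first 3 roles, 33.2 and 51.1 for the regulatory particle and 24.9 for the activators. The alpha ring value sets *PSMA8*, which had 0 counts, at 3 counts. Placing *PSMD5*, *PSMD9* and *PSMD10* in the regulatory particle gave 44.4 for it and 8.60 for the assembly factors, and adding pseudogene counts, chosen after seeing the data, moved the ATPase ring to 54.6 and the other medians by less. The ratio of *PSMB5* to *PSMB8* was 1006 on canonical transcripts, 934 in CPM, 981 on coding length and 1011 on windows found in no other gene. Each was below the 2099 on merged exons. The ratio of *PSMB6* to *PSMB9* was 74.9 on canonical transcripts, 60.7 in CPM, 55.6 on coding length and 76.3 on windows found in no other gene. The ratio of *PSMB7* to *PSMB10* was 40.0 with such windows as the length and 64.6 with read-through counts added, both chosen after seeing the data. The 40.0 keeps all counts of *PSMB10*, also any from shared windows, so it is not a ratio measured on unshared sequence. The 13 alternatives for these ratios ran from 40.0 to 1011. All were above 1, but the changes made were too small to reverse ratios of this size. The members with at least 1 RPKM numbered 46, beside 44.6% of all protein-coding genes, and 47 under each of its 3 alternatives. The share of all protein-coding genes under these alternatives is not given here, so the 47 cannot be set against it. Depth limits *PSMB8*, *PSMB11* and *PSMA8*, each with fewer than 10 counts.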
